A study of Mus musculus with 12 samples.

Results

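A set of 9 genes of retinoid storage, synthesis and response (9 of the 17885 genes in the table of control and Eed iKO cells, and of the 21915 genes in the hair cycle table) was followed in mouse hair follicle stem cells (HFSCs). They are Lrat, Crabp1, Crabp2, Aldh1a1, Aldh1a2, Aldh1a3, Stra6, Dhrs3 and Rarb. The set was chosen by the hair cycle values of Lrat, which was among the genes that differed most between anagen and telogen, and the other 8 genes were added as parts of the same pathway. For this reason the anagen and telogen values of these genes are given as a description, with no test.

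Retinol, the alcohol form of vitamin A, is taken up by cells and either stored as retinyl esters or oxidized in sequence to retinal and retinoic acid. Retinoic acid binds nuclear receptors (RARs paired with RXRs) that regulate genes carrying their response elements, and it is broken down by CYP26 enzymes. In skin, retinoids are known to affect keratinocyte differentiation, the sebaceous gland and the hair cycle, in which follicles pass from rest (telogen) to growth (anagen).

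All mice were C57BL/6J, and HFSCs were sorted from back skin as cells positive for CD34 and EpCAM, high in α6-integrin and negative for Sca1. RNA was sequenced in 12 libraries, 3 per group. Anagen cells came from wildtype mice of P28 to P30 and telogen cells from wildtype mice of P50 to P52, without a stated treatment. Control cells (genotype given as wildtype) and Eed iKO cells (K15-CrePGR with Eed fl/fl, given as Eed -/-) came from P70 mice. The latter had RU-486 on the skin at 10 mg/ml for 7 days, which activates a Cre driven by the K15 promoter and so acts in the bulge, while controls received ethanol alone. Genotype and RU-486 therefore cannot be told apart in this comparison. EED is a core subunit of PRC2, the complex that places H3K27me3.

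Library depth was 33269583 to 57063586 reads in the Eed table and could not be worked out for the hair cycle table. All 11 bulge genes were detected in every library, from Fgf18 at 237 to 426 normalised counts in anagen to Krt15 at 142406 or more. Of the sort markers, Cd34 was lower in anagen (2955 to 4144 against 6433 to 9159, limma adjusted p = 0.00382) and Itga6 higher (10531 to 11655 against 4177 to 6856, limma adjusted p = 0.0144). Eed itself had 1084, 1249 and 950 normalised counts in the controls and 933, 1361 and 1001 in the libraries labelled Eed iKO, a log2 fold change of -0.01 (SE 0.22, limma adjusted p = 0.993), so the label is not checked by the level of the whole transcript. By other assays, the paper reports lower Eed mRNA in sorted Eed iKO cells (RT-qPCR) and loss of H3K27me3 at P70 (immunofluorescence). Mki67 stood at 6125 and 6301 in libraries 1 and 2 labelled Eed iKO but at 609 in the third, with 639, 2543 and 928 in the controls. The libraries of control 3 and Eed iKO 3 held the most Krt10, an epidermal differentiation keratin, at 26841 and 45520 against 3429 to 10738 elsewhere. Krt1 went the same way, at 11927 and 11058 against 772 to 2138. Of the other differentiation genes listed, Lor and Ivl did so in part and Flg did not. Lor was at 613 and 629 in control 3 and Eed iKO 3, below 677 in control 1 and above 195 to 404 elsewhere. Ivl was at 198 and 181 in control 3 and Eed iKO 3, below 241 in control 1 and above 47.8 to 147 elsewhere. Flg was highest in control 2 (938), with 391 in control 3 and 260 in Eed iKO 3. In bulk RNA, fewer cells of a type and less RNA per cell cannot be told apart.

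Promoter bases show what is on record next to these genes. RARs bind direct repeats of a half-site (AGGTCA, where the first base may also be G and the third may also be T), classically with 5 bases between the copies. Windows from 250 bases before to 50 after the start (RefSeq, GRCm38.p6, both strands searched) were found for 7 of the 9 genes. Of all 32851 windows, 0.0974% held a repeat spaced by 5, as did those of Rarb and, in the wider pathway list, Cyp26a1. No repeat spaced by 1, 2 or 5 was found in the windows of the other 6 members, which says only that these letters are absent there. The 100 bases before the start are shown for Lrat, which leads the values below and holds TATAA (present in 16.0% of all windows before the start), and for both genes with the repeat, each on its gene's strand. Capitals mark TATAA in Lrat and the half-sites in the others. The coordinates are chr3:82903975-82904074 (minus strand), chr14:16575477-16575576 (minus strand) and chr19:37697708-37697807 (plus strand).
Lrat: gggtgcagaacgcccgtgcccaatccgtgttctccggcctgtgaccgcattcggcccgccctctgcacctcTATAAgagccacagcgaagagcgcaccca
Rarb: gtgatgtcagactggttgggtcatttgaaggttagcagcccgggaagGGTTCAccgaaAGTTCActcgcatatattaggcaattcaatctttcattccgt
Cyp26a1: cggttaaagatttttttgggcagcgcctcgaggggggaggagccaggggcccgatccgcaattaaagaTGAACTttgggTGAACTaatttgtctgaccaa

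Among the members tested, the hair cycle difference was widest for the storage gene Lrat. Lrat (ENSMUSG00000028003.6, chromosome 3, 82892579 to 82903973, minus strand) encodes the enzyme that esterifies retinol for storage. It had 2270, 3062 and 2440 normalised counts in anagen libraries 1 to 3 and 6.80, 20.0 and 12.7 in telogen libraries 1 to 3. The lowest anagen library lay far above the highest telogen library. The means were 2591 ± 417 and 13.2 ± 6.61 (SD, n = 3 each), a log2 fold change of 7.62 (SE 0.39) on the log2(value + 1) scale. Leaving out any 1 library gave 7.25 to 7.96.

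Across these 6 libraries, the 3 genes nearest to Lrat by root mean square difference of gene-centred log2 values were Cdca5 (0.47), Bub1b (0.79) and Brca1 (0.83), which act in chromosome cohesion, the spindle checkpoint and DNA repair. Lrat was chosen by these same libraries, so only genes with a similarly wide difference can lie near it, and nothing is read from the ranking. In the Eed table the nearest genes were Pitpnm3 (0.89), Aurkb (0.91) and Camk2b (0.93). All 4 proliferation markers were higher in anagen, with Mki67 at 10404 to 14954 against 276 to 431. Their part in the Lrat values was not tested.

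**Figure D1:**
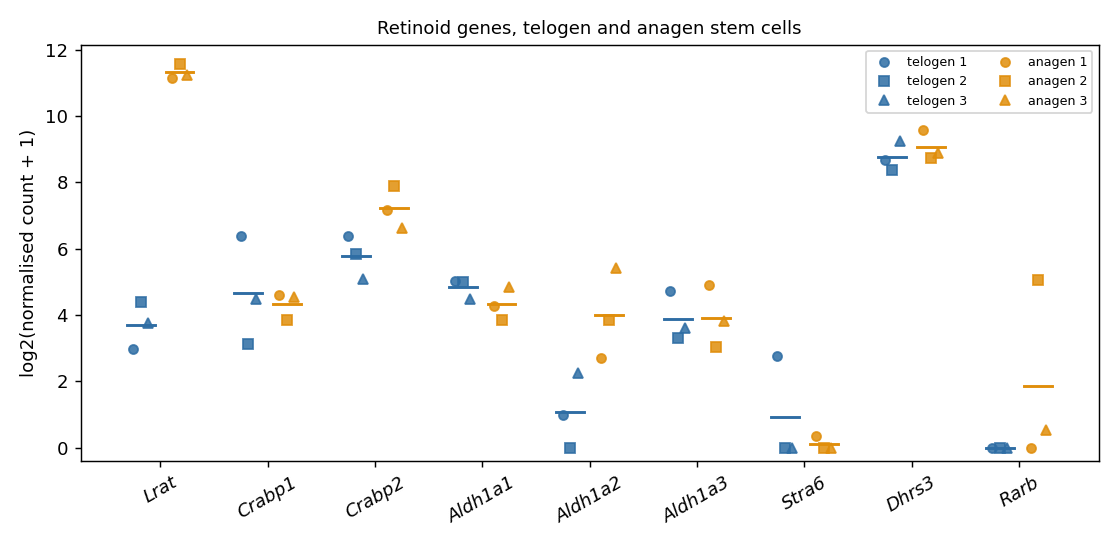
Normalised counts of the 9 retinoid genes on a log2(value + 1) axis in each telogen (blue) and anagen (orange) library. Symbols mark the 3 libraries of a group and bars the mean of the log2 values. Lrat separates the groups most, at 6.80 to 20.0 in telogen and 2270 to 3062 in anagen.

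The cytosolic binding proteins CRABP1 and CRABP2 carry retinoic acid, the second of them towards its receptors. Crabp2 (chromosome 3, 87948666 to 87953376, plus strand) had 143, 237 and 97.1 normalised counts in anagen and 83.0, 56.7 and 32.8 in telogen. Every anagen library was above every telogen library, with a log2 fold change of 1.45 (SE 0.49). Crabp1 (chromosome 9, 54764748 to 54773110, plus strand) had 23.1, 13.3 and 22.3 in anagen and 82.6, 7.79 and 21.4 in telogen. Its groups overlapped, and the log2 fold change of -0.35 (SE 0.80) turned to 0.51 without telogen library 1.

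The ALDH1A enzymes make retinoic acid from retinal. Aldh1a1 (chromosome 19, 20492715 to 20643465, plus strand) had 18.5, 13.5 and 27.6 normalised counts in anagen and 31.4, 31.2 and 21.6 in telogen. Aldh1a3 (chromosome 7, 66390890 to 66427517, minus strand) had 29.3, 7.13 and 13.2 in anagen and 25.7, 8.88 and 11.1 in telogen. Both genes overlapped between the groups, with log2 fold changes of -0.51 (SE 0.58) and 0.05 (SE 0.75), and of the 31-mers of Aldh1a1 5.7% also occur in transcripts of other genes, most often Aldh1a7.

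Aldh1a2 (chromosome 9, 71215789 to 71296243, plus strand) did not pass the filter on low values in the hair cycle table. It was listed at 5.52, 13.4 and 41.7 in anagen and 0.967, 0 and 3.80 in telogen, so the groups did not overlap. Aldh1a2 is known as a source of retinoic acid in mesenchymal cells. The fibroblast genes Col1a1 (214 to 419 against 45.5 to 89.9) and Dcn (15.7 to 38.5 against 0 to 1.47) were also higher in anagen, and Lum was listed at 0 to 1.79 in all 6 libraries. Col1a2 went the other way, with 154, 229 and 172 in anagen below 233, 600 and 346 in telogen (means 185 ± 39.0 and 393 ± 188, SD, n = 3 each, limma adjusted p = 0.108), and Pdgfra overlapped (1.26 to 13.3 against 1.35 to 23.6). Of the 4 fibroblast genes tested, 2 thus had positive and 2 negative fold changes. Col3a1 did not pass the filter but was listed at 48.5, 6.75 and 20.2 in anagen and 0, 0.42 and 0 in telogen. Dpt and Corin, which did not pass the filter either, overlapped. The summed level of all 8, mostly from Col1a1 and Col1a2, was 482 to 630 in anagen and 319 to 652 in telogen. Their part in the Aldh1a2 values was not tested.

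Dhrs3 (chromosome 4, 144892827 to 144928209, plus strand) encodes a reductase that returns retinal to retinol. It had 763, 422 and 472 normalised counts in anagen and 408, 335 and 606 in telogen, with overlapping groups and a log2 fold change of 0.29 (SE 0.31). Stra6 (chromosome 9, 58063788 to 58153996, plus strand), the cell surface receptor for retinol carried by RBP4, was listed at 0.266, 0 and 0 in anagen and 5.76, 0 and 0 in telogen. Neither Stra6 nor Rarb passed the filter. Rarb (chromosome 14, 16430839 to 16819156, minus strand), a receptor gene that is itself a classical retinoic acid target, was listed at 0, 32.0 and 0.434 in anagen and 0 in all telogen libraries. One anagen library thus held nearly all of it. Of the exon bases of Rarb, 38.4% lie on exons of other genes, and 35.7% of its 31-mers are shared, most with Top2b, so its reads are uncertain.

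Of the 9 genes, 6 passed the filter in the hair cycle table. Groups did not overlap for 2 of the 6, against 33.3% of all tested genes. Nothing is read from this count, since the rule that chose the set used this contrast.

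Levels of different genes were compared per kilobase of exon. In telogen, Dhrs3 was highest among the 9 genes at 154 ± 47.9 normalised counts per kb, then Crabp1 at 46.5 ± 49.7 and Crabp2 at 43.5 ± 19.0, whose ranges overlapped each other. Aldh1a1 (5.68), Aldh1a3 (3.30), Lrat (2.46), Aldh1a2 (0.701), Stra6 (0.330) and Rarb (listed at 0) followed, each overlapping its neighbour in range. In anagen, Lrat stood first at 484 ± 77.9 per kb and above the range of Dhrs3 (189 ± 62.8), which overlapped that of Crabp2 (120 ± 53.8). Crabp1 (24.4), Aldh1a2 (8.93), Aldh1a1 (4.02), Aldh1a3 (3.58), Rarb (2.06) and Stra6 (0.0152) came after, again each overlapping its neighbour.

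Beyond the 9 genes, a list of 56 pathway genes was counted. Of these 40 could be tested between anagen and telogen, of which 2 were higher in anagen (Dhrs9 and Tgm2) and 1 in telogen (Awat2) at a log2 fold change over 2 and an unadjusted limma p under 0.05. Of all 13457 tested genes, 3.33% and 1.77% passed in these directions. The median log2 fold change of the list was 0.01, as over all tested genes (0.01). At a limma adjusted p under 0.05 with no fold threshold there were 5, against 11.6% of all tested genes.

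Among enzymes, Dhrs9, a retinol dehydrogenase, had 176, 325 and 308 normalised counts in anagen and 9.71, 26.7 and 73.4 in telogen, and the groups did not overlap (log2 fold change 3.22, SE 0.64, limma adjusted p = 0.00897). Adh7, a retinol-oxidizing alcohol dehydrogenase, was lower in anagen at 847, 535 and 552 against 1378, 2239 and 1370 (-1.36, SE 0.27, limma adjusted p = 0.00898). Rdh10, which oxidizes retinol to retinal, overlapped between the groups, with 151 to 197 in anagen and 164 to 191 in telogen (-0.02, SE 0.31, limma adjusted p = 0.974).

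Awat2, an acyltransferase that can also esterify retinol, was at 5.47, 11.5 and 7.23 in anagen and 60.7, 52.8 and 47.5 in telogen (-2.64, SE 0.59, limma adjusted p = 0.0154). The sebaceous gene Scd3 had a higher mean in telogen, at 48.1 to 258 against 13.5 to 62.3, but its groups overlapped (limma adjusted p = 0.0764). Pparg (1.15, 4.72 and 0) and Cidea (0, 37.8 and 1.26) were listed in telogen but at 0 in all anagen libraries, and neither passed the filter. Mc5r was listed at 0 in all 6 libraries, and the part of sebaceous cells was not tested. Cyp26b1, which breaks down retinoic acid, had 765, 1025 and 1283 in anagen and 4169, 4236 and 2502 in telogen. Every anagen library was below every telogen library (-1.82, SE 0.26, limma adjusted p = 0.00159). Cyp26a1 and Cyp26c1 were listed at 0 in all 6 libraries, as was Rbp4.

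Of the receptors, Rara rose in anagen, with 518, 402 and 495 normalised counts against 158, 159 and 174 (1.51, SE 0.27, limma adjusted p = 0.00508). Rarg (179 to 618 against 200 to 676, adjusted p = 0.801), Rxra (1703 to 2440 against 1834 to 1908, adjusted p = 0.571) and Rxrb (63.8 to 114 against 90.0 to 168, adjusted p = 0.538) overlapped in the same limma fit. Rxrg was below 3 counts in all 6 libraries and was not tested. The retinoic acid target Tgm2 was at 16.1 to 26.3 in anagen and 0 to 6.22 in telogen (2.91, SE 0.89, limma adjusted p = 0.0574). These are low values, and 21.8% of the exon bases of Tgm2 lie on exons of other genes, with 20.0% of its 31-mers shared. The part of fibroblasts, whose genes differed in both directions as given above, was not tested.

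**Figure D2:**
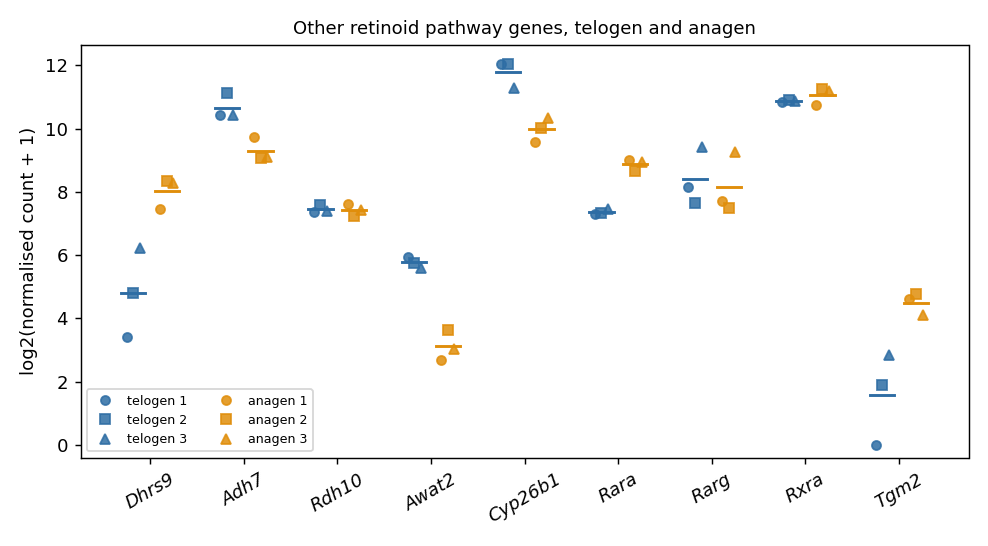
Normalised counts of 9 further pathway genes on a log2(value + 1) axis in telogen (blue) and anagen (orange) libraries, with bars at the mean of the log2 values. Dhrs9 and Rara lie higher in anagen, and Adh7, Awat2 and Cyp26b1 lie higher in telogen, while Rarg and Rdh10 overlap.

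In the P70 cells the question was whether these genes differ when Eed is targeted. Of the 9 genes 8 were tested, and none exceeded a log2 fold change of 1.5 at an unadjusted p under 0.05, against 0.826% of all 15008 tested genes for higher and 0.926% for lower values in the libraries labelled Eed iKO. None had a limma adjusted p under 0.05, which 0.0267% of all tested genes had, while 2 (Crabp1 and Dhrs3) had an unadjusted p under 0.05, as did 14.7% of all tested genes. On the recovered reads edgeR called none of the 8 at the fold and p thresholds (1.62% of all tested genes), and DESeq2 called 1, Lrat (1.7% of all tested genes). Groups did not overlap for 1 of the 8 (Crabp1), against 20.2% of all tested genes.

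Lrat had 11.8, 11.9 and 63.5 normalised counts in control libraries 1 to 3 and 257, 229.7 and 4.94 in libraries 1 to 3 labelled Eed iKO. Libraries 1 and 2 labelled Eed iKO were above every control, and library 3 was below every control. The log2 fold change was 1.68 (SE 1.33, 95% interval -1.25 to 4.62, limma adjusted p = 0.593). Without Eed iKO library 3 it was 3.47 (limma adjusted p = 0.0692), and without Eed iKO library 1 or 2 it was 0.75 or 0.83. Without control library 1, 2 or 3 it was 1.29, 1.30 or 2.46. DESeq2 on the recovered reads gave 2.49 (adjusted p = 0.136). Mki67 and Top2a (3005 and 2750 in Eed iKO libraries 1 and 2, 300 in library 3, 256 to 755 in controls) were high in the same pair of libraries. Ccnb1 was too, at 460 and 323 against 22.7 in library 3 and 39.9 to 220 in controls. Cdk1 was at 276, 158 and 57.3 in Eed iKO libraries 1 to 3, all above the controls (27.8 to 49.0). Its log2 fold change was 1.80 (SE 0.64, limma unadjusted p = 0.0178, adjusted p = 0.230). The part of these proliferation genes in the Lrat values was not tested.

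**Figure D3:**
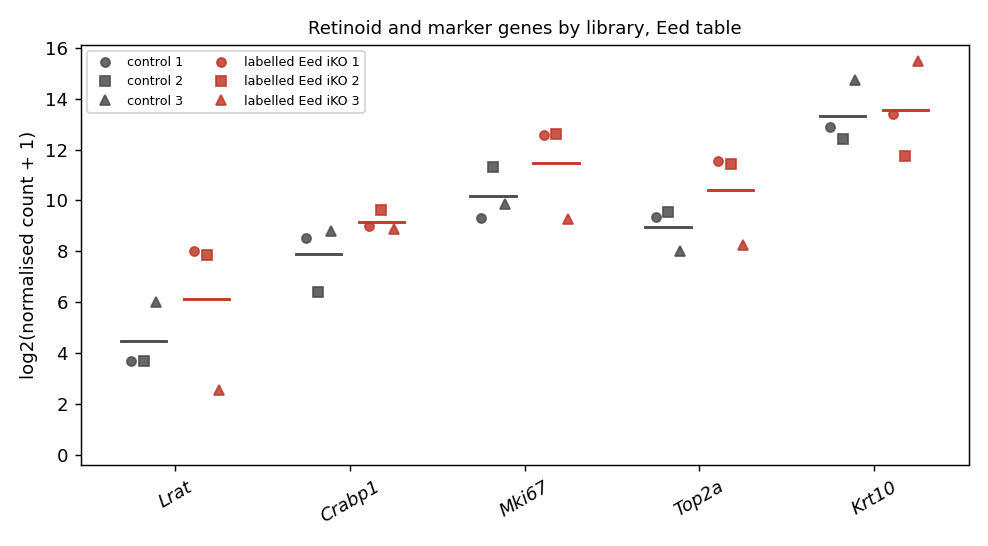
Lrat and Crabp1 beside the proliferation genes Mki67 and Top2a and the differentiation keratin Krt10, as log2(normalised count + 1) in each control library (grey) and each library labelled Eed iKO (red), with bars at the mean of the log2 values. Lrat, Mki67 and Top2a are high in the first pair of libraries labelled Eed iKO and low in the third, where Krt10 is highest. The differentiation genes Lor and Ivl, not drawn, are highest in control library 1. For both, control library 3 and the third library labelled Eed iKO come next. Flg, also not drawn, is highest in control library 2.

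Crabp1 was the member whose groups separated, with 365, 84.5 and 442 normalised counts in controls and 508, 789 and 473 in the libraries labelled Eed iKO. The lowest of the latter was close above the highest control. The log2 fold change was 1.26 (SE 0.55, 95% interval 0.04 to 2.48, limma adjusted p = 0.319), and it fell to 0.52 without control library 2. Crabp2 had 133, 240.5 and 76.2 in controls and 244, 120 and 120 in the libraries labelled Eed iKO, with overlapping groups (0.17, SE 0.52, limma adjusted p = 0.912).

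Dhrs3 was at 2790, 4228 and 4296 normalised counts in controls and 2473, 2713 and 2954 in the libraries labelled Eed iKO. The third of these was above the first control, so the groups overlapped, and the log2 fold change of -0.45 (SE 0.19, 95% interval -0.87 to -0.03, limma adjusted p = 0.299) did not pass. Per kilobase Dhrs3 was the highest of the 9 in both groups, at 1288 ± 291 in controls and 927 ± 82.2 in the libraries labelled Eed iKO, where its range overlapped that of Crabp1 (735 ± 216).

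The groups overlapped for all 3 ALDH1A genes. Aldh1a1 had 123, 19.5 and 187 normalised counts in controls and 128, 19.9 and 38.6 in the libraries labelled Eed iKO (-0.72, SE 0.92, limma adjusted p = 0.764). Aldh1a2 had 0, 53.1 and 13.6 in controls and 82.8, 6.64 and 63.3 in the others, a log2 fold change of 1.90 (SE 1.44, limma adjusted p = 0.571) that ran from 0.30 without control library 1 to 3.18 without control library 2. Aldh1a3 had 49.3, 26.0 and 36.3 against 28.0, 41.2 and 36.6 (-0.05, SE 0.63, limma adjusted p = 0.983). The intervals of these 3 genes were wide, at -2.75 to 1.31, -1.27 to 5.08 and -1.43 to 1.33 in that order.

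Stra6 had 22.9, 24.9 and 20.9 normalised counts in controls and 16.1, 21.2 and 28.7 in the libraries labelled Eed iKO (-0.09, SE 0.70, 95% interval -1.62 to 1.45, limma adjusted p = 0.970). Rarb did not pass the filter, with 0, 10.8 and 7.25 in controls and 0, 2.66 and 0 in the others, where a count of 0 allows up to 3 reads. Cyp26a1, the other gene with the repeat shown above, was at 11.9 in control library 2 and listed at 0 in the remaining 5.

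**Figure D4:**
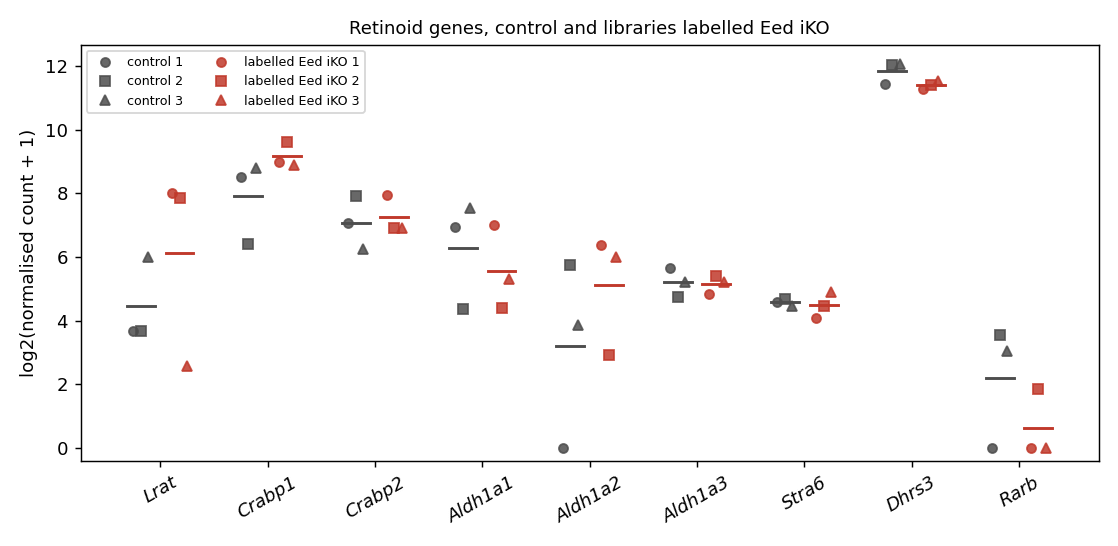
Normalised counts of the 9 retinoid genes on a log2(value + 1) axis in each control library (grey) and each library labelled Eed iKO (red), with bars at the mean of the log2 values. The groups overlap for every gene but Crabp1, and Lrat splits the libraries labelled Eed iKO, at 229.7 and 257 against 4.94.

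Of the 56 pathway genes, 51 were listed and 42 tested in this table, and none passed the fold and p thresholds or had a limma adjusted p under 0.05. An unadjusted p under 0.05 was found for 3 (Rxra, Rdh9 and Dhrs4, the latter pair being dehydrogenases of the retinol and retinal family), against 14.7% of all tested genes, and edgeR and DESeq2 each called 1 gene of the list. Of the exon bases of Rdh9, 64.1% lie on exons of other genes, and 72.0% of its 31-mers are shared, so its reads are uncertain. The median log2 fold change of the list was -0.04 and that of all tested genes was 0.00. Groups did not overlap for 6 of the 42, against 20.2% of all tested genes. Rxra, the most abundant receptor, had 18610, 24277 and 23099 normalised counts in controls and 16021, 17101 and 14427 in the libraries labelled Eed iKO (-0.47, SE 0.15, limma adjusted p = 0.177). Rarg (-0.26), Rara (-0.01) and Rxrb (0.06) had limma adjusted p-values of 0.402, 0.990 and 0.922. Cyp26b1 had 9660, 8935 and 13613 in controls and 11379, 8904 and 13331 in the others, which overlapped (0.07, limma adjusted p = 0.906), and Rdh10 lay at 347 to 441 and 321 to 386 (-0.12, limma adjusted p = 0.877).

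**Figure D5:**
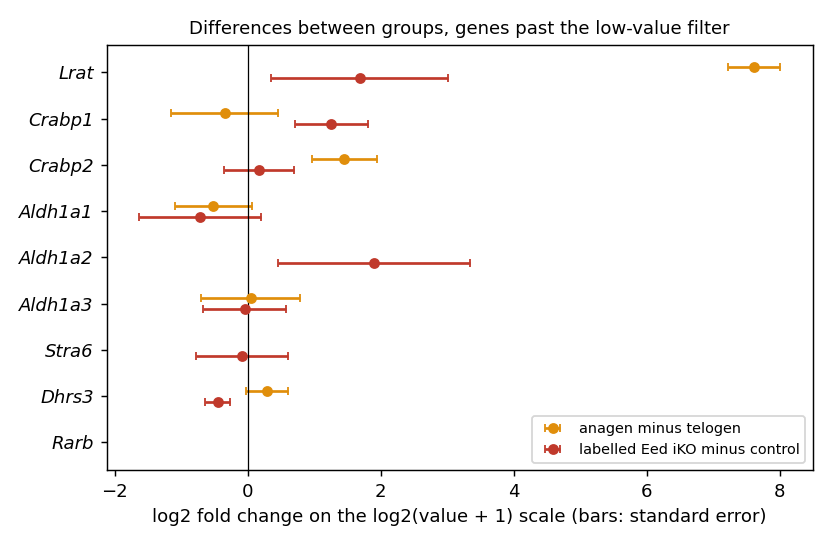
Log2 fold change with its standard error for each member that passed the low-value filter, anagen minus telogen (orange) and libraries labelled Eed iKO minus control (red). Lrat is at 7.62 in the first and 1.68 in the second, where the error is 1.33, and genes without a point did not pass the filter.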

How the data were processed

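RNA-seq of sorted HFSCs was deposited as 2 tables, and each was analysed on its own. For each gene and library the deposited signal is, per the file headers and labels, a count that the authors obtained with kallisto 0.42.5 on Gencode transcripts (mouse build mm10) and divided by a DESeq2 size factor. Whole reads could be recovered from the Eed table (100% of values, within 0.01 of a whole number) and not from the hair cycle table (at most 10.8%). Columns with the authors' own fold changes and p-values were not used.

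Members were matched by symbol, and the members and lists were chosen with earlier results of these data known. Genes past filterByExpr (count minimum 10) were tested with limma 3.58.1 on log2(value + 1) with an intensity trend, and p-values were adjusted over all tested genes by Benjamini-Hochberg. Fold changes on this scale understate those of low genes. Calls used an unadjusted p under 0.05 with a log2 fold change over 1.5 (Eed) or 2 (hair cycle). The study's methods give these fold thresholds with a p-value not said to be adjusted. For the Eed comparison a legend gives a lower bar, a fold change of 1.5 not stated as log2, together with an adjusted p. Counts at an adjusted p with no fold threshold are given beside. The methods' filter on TPM was not used here. Named were all members, pathway genes past a threshold, and the Cyp26 genes, Rdh10, Rbp4 and receptors; 1 further gene is not reported here. Alternatives used edgeR 4.0.16, DESeq2 1.42.0, other scalings and left-out libraries. The procedure was tested on simulated data. Positions, exon lengths and shared 31-mers came from GENCODE vM21 (GRCm38). Nothing in the labels says which libraries share an animal or litter, so p-values measure only the spread between libraries, and intervals cover that spread.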

Additional observations from a re-analysis of the deposited data

How the results depend on the processing

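Calls depended on single libraries in the Eed comparison and less so in the hair cycle. Of all genes, 263 passed in the Eed comparison, 425 without the filter, 4 at an adjusted p under 0.05, and 197 to 413 with 1 library left out (413 without Eed iKO library 3). The 56 pathway genes gave 0 calls, 1 with edgeR, 1 with DESeq2 and 0 to 3 with 1 library left out. Lrat was at 1.68, at 2.49 with DESeq2 and at 0.75 to 3.47 with 1 library left out. Control library 2 and Eed iKO library 3 differ from their groups in Mki67. Leaving out both was a choice made after seeing the data, on a gene that moved with Lrat among the libraries labelled Eed iKO. Among the controls it did not, with Mki67 highest in library 2 and Lrat in library 3. Leaving out both makes the groups differ in Mki67 by construction. It gave 492 calls, 4 pathway genes and 3.09 for Lrat, with 0.76 for Crabp2 and -0.31 for Aldh1a3, and is not support for a difference. In the hair cycle, 686 genes passed (643 to 786 with 1 library left out) and 1556 at an adjusted p under 0.05. The pathway list gave 3, 5 without the filter, 5 at an adjusted p under 0.05, and 3 to 4 with 1 library left out. Signs turned with 1 library left out for Crabp2 (-0.24 to 0.59), Aldh1a3 (-0.27 to 0.17) and Stra6 (-0.29 to 0.11) in the Eed comparison and for Crabp1 (-1.11 to 0.51) and Aldh1a3 (-0.45 to 0.50) in the hair cycle. Crabp1 passed in the Eed comparison without control library 1 (1.56) or 3 (1.70). Same-numbered libraries did not deviate together in all pairs (correlations 0.04, 0.07 and 0.19 in the Eed table, where 2 of 3 correlated best with their own number, and -0.03, -0.07 and -0.03 in the hair cycle, where none did). With the replicate number as a block, 331 and 696 genes passed, and the pathway list gave 0 and 3. The causes were not tested.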
